A study of Mus musculus with 6 samples.

Results

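The core enzymes of the tricarboxylic acid cycle were followed through 9 genes (Cs, Aco1, Ogdh, Dlst, Sucla2, Suclg1, Fh1, Mdh1 and Mdh2) out of the 24391 genes listed in the deposited count files. Each was taken by an exact match of its gene name, and all 9 passed the filter on low counts. RNA sequencing was done on 6 libraries of mouse melanoma cells, 3 labelled KMT2D WT and 3 labelled KMT2D KO. Kmt2d encodes a histone H3 lysine 4 methyltransferase, and the comparison asks how the cells labelled KMT2D KO differed from those labelled KMT2D WT. All cells carried the iBIP alleles on a mixed FVB and B6 background, namely a tamoxifen-inducible Cre driven by the melanocyte promoter of tyrosinase (Tyr-CreERT2), the doxycycline-responsive activator Rosa26-rtta, the transgene TetO-BRAFV600E, and the floxed tumour suppressor alleles PTENL/L and INK/ARFL/L. Mice received doxycycline, and 4-OHT, the active form of tamoxifen, was painted on the ears, where tumours formed. The KMT2D WT cells were isolated from iBIP;KMT2D+/+ mice and the KMT2D KO cells from iBIP;KMT2DL/L mice, so activated BRAF and the floxed tumour suppressor alleles were shared by both groups. The cells were grown in high-glucose medium, and ages are not given in the labels. Whether the 3 libraries within a group stem from different cultures, tumours or mice is not stated in the labels. The p-values therefore measure only the spread between libraries, which may be technical, and genotype and tumour of origin cannot be told apart.

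The cycle oxidises acetyl groups in the mitochondrial matrix and passes their electrons to the respiratory chain. Citrate synthase (Cs) joins acetyl-CoA to oxaloacetate, aconitase isomerises citrate, and dehydrogenases release carbon dioxide and yield succinyl-CoA, which is turned back to oxaloacetate by way of succinate, fumarate and malate. Its intermediates also leave for the synthesis of lipids and amino acids, which is why the cycle is studied in growing tumour cells. In the set, Aco1 encodes the cytosolic aconitase and Mdh1 the cytosolic malate dehydrogenase, whereas the other 7 encode mitochondrial enzymes or subunits; fumarase, the product of Fh1, is also found in the cytosol.

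The KMT2D WT libraries held 43168605 to 59360068 counts and the KMT2D KO libraries 55594979 to 79718782. Values are given as CPM, counts scaled to a common library size with TMM, and log2 fold changes are KMT2D KO relative to KMT2D WT. All levels are of transcripts, and protein was not measured. Kmt2d itself, read as a whole-gene count, had 79.7, 87.6 and 101 CPM in the KMT2D WT libraries, against 73.0, 69.3 and 79.8 CPM in those of KMT2D KO (log2 fold change -0.27, edgeR adjusted p = 0.0075), with overlapping libraries. A gene total need not fall when only part of a gene is deleted, so it does not check the loss of the floxed part. The defining pigment cell markers were scarce: of 7 melanocyte markers, Sox10, Tyr, Tyrp1, Dct and Mlana were under 1 CPM in both groups. The 7 together reached 15.9 to 17.3 CPM in the KMT2D WT libraries, against 50.3 to 59.0 CPM in those of KMT2D KO. Nearly all of this was Mitf alone, whose mean rose from 15.4 to 53.2 CPM (log2 fold change 1.79). Among the rest, Mlana was higher (edgeR adjusted p = 0.0056), and Sox10 (0.33) and Pmel (0.20) showed no difference by that test. Tyr, Tyrp1 and Dct fell under the filter on low counts. The 8 fibroblast markers, of which Fap alone was under 1 CPM in both groups, summed to 5530.1 to 5730.3 CPM in the KMT2D WT libraries, against 21240.0 to 22240.0 CPM in those of KMT2D KO. Most of that sum came from Col1a1, Col1a2, Col3a1 and Pdgfra, and of the 8 markers 6 were higher and 2 lower, Dpt (44.8 to 0.839 CPM, log2 fold change -5.69) and Lum (-1.29). The 5 immune cell markers summed to 9.87 to 15.5 CPM in the KMT2D WT libraries, against 3.16 to 3.76 CPM in those of KMT2D KO, with Ptprc, Cd3e and Itgam under 1 CPM in both groups. These marker levels moved with the groups, and their part in the results on the cycle genes was not tested. The labels' extraction protocol names cerebellar tissue, and 6 of 7 cerebellar neuron markers were under 1 CPM in both groups (summed level 0.581 to 0.646 and 2.03 to 2.71 CPM).

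The 9 genes split evenly in direction. Of the 9, 8 were called by the quasi-likelihood test of edgeR at an adjusted p under 0.05, against 71.0% of the 14579 genes tested. Aco1, Suclg1, Fh1 and Mdh1 were higher in KMT2D KO, where 35.4% of tested genes were higher, and Ogdh, Dlst, Sucla2 and Mdh2 were lower, where 35.5% were lower. Cs was the 1 member that was not called. The median log2 fold change of the 9 was -0.03, and that of all tested genes was 0.00. None of the 9 was called with an absolute log2 fold change above 1, as 26.8% of tested genes were. The libraries of the groups did not overlap for 7 of the 9, against 74.3% of tested genes, and the exceptions were Cs and Fh1. In these bulk libraries, fewer cells of a type and less RNA per cell cannot be told apart.

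**Figure D1:**
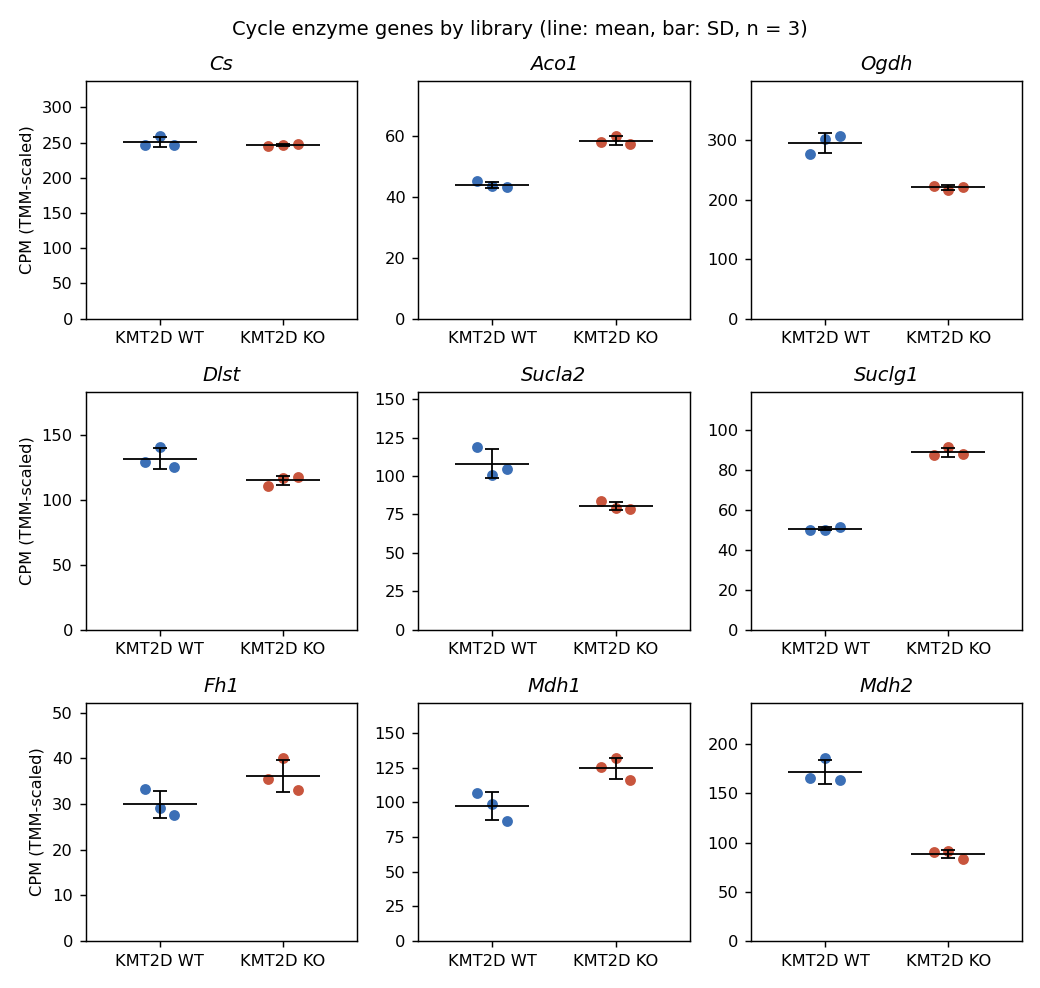
Level of each of the 9 cycle genes (CPM) in the 3 KMT2D WT and 3 KMT2D KO libraries, with 1 point per library, a line at the group mean and a bar of 1 SD on either side (n = 3). Mdh2 and Suclg1 show the widest separation of the groups, Cs lies at the same level in both, and the Fh1 points of the groups overlap.

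The transcript of the condensing enzyme stood at the same level in both groups. Cs (mm9 chromosome 10, 127774888 to 127799535, plus strand, 11 exon blocks) had 247, 259.6 and 247 CPM in the KMT2D WT libraries, against 246, 246 and 248 CPM in those of KMT2D KO (here and below in the order of replicates 1, 2 and 3). The KMT2D KO libraries lay close together, and KMT2D WT replicate 2 alone stood above the rest. The means were 251 ± 7.47 and 247 ± 1.07 CPM (SD, n = 3), with a log2 fold change of -0.03 ± 0.05 (SE) and an edgeR adjusted p of 0.65. The 95% interval of -0.13 to 0.08 corresponds to a KMT2D KO level between 0.913 and 1.056 times that of KMT2D WT. Scaled by library size alone, which moved the median of all genes by -0.11, Cs was called lower (-0.14, edgeR adjusted p = 0.021).

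Aco1 encodes the cytosolic aconitase, which becomes the iron regulatory protein IRP1 when it lacks its iron-sulfur cluster. It lies on mm9 chromosome 4 (40090298 to 40146042, plus strand, 21 exon blocks). Aco1 had 45.1, 43.4 and 43.2 CPM in the KMT2D WT libraries, against 58.0, 60.0 and 57.2 CPM in those of KMT2D KO. Every KMT2D KO library was above every KMT2D WT library, and the spread within each group was under 3 CPM. The mean rose from 43.9 ± 1.02 to 58.4 ± 1.41 CPM (SD, n = 3), 1.33-fold, with a log2 fold change of 0.41 ± 0.06 (SE) and an edgeR adjusted p of 1.7e-05.

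The 2-oxoglutarate dehydrogenase complex converts 2-oxoglutarate to succinyl-CoA with an E1 subunit encoded by Ogdh, which decarboxylates the substrate, and a lipoate-bearing E2 subunit encoded by Dlst, which transfers the succinyl group. Ogdh (mm9 chromosome 11, 6191600 to 6259097, plus strand, 26 exon blocks) had 276, 303 and 308 CPM in the KMT2D WT libraries, against 224, 217 and 222 CPM in those of KMT2D KO. All KMT2D KO libraries were below all KMT2D WT libraries. The mean fell from 295 ± 16.8 to 221 ± 3.58 CPM (SD, n = 3), with a log2 fold change of -0.42 ± 0.05 (SE) and an edgeR adjusted p of 6.1e-06. Dlst (mm9 chromosome 12, 86451783 to 86475041, plus strand, 15 exon blocks) had 129, 141 and 125 CPM in the KMT2D WT libraries, against 111, 117 and 117 CPM in those of KMT2D KO. The groups did not overlap, but the gap between KMT2D WT replicate 3 and the highest KMT2D KO library was smaller than the range within KMT2D WT. The mean of Dlst fell from 132 ± 8.11 to 115 ± 3.72 CPM (SD, n = 3), with a log2 fold change of -0.20 ± 0.06 (SE) and an edgeR adjusted p of 0.0074. Without KMT2D KO replicate 1, Dlst was no longer called (-0.16, edgeR adjusted p = 0.070), and scaled against the other genes of its chromosome it was not called either (-0.03, edgeR adjusted p = 0.63). With library size alone as the scaling it was -0.31.

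Counted per kilobase of annotated exon, the ratio of Ogdh to Dlst was 0.847, 0.853 and 0.976 in KMT2D WT and 0.801, 0.737 and 0.750 in KMT2D KO. All KMT2D KO ratios were below all KMT2D WT ratios, although KMT2D WT replicate 3 stood well above the other KMT2D WT libraries. The means were 0.892 ± 0.0730 and 0.763 ± 0.0336 (SD, n = 3), a log2 difference of -0.22. Dld, the E3 subunit shared with pyruvate dehydrogenase, fell as well (105.6 to 77.9 CPM, log2 fold change -0.44, and -0.28 when scaled within its chromosome). Ogdhl, which encodes an Ogdh-like protein, rose from 15.6 to 46.6 CPM (1.57, edgeR adjusted p = 8.0e-11), the largest rise among the 19 cycle genes examined. The promoter of Ogdh holds a perfect cyclic AMP response element (TGACGTCA), the motif that CREB family factors bind, which 1.77% of genes with a promoter window hold. The 48 bases around it (RefSeq, GRCm38.p6, chr11:6291526-6291573, plus strand) are shown with the element in capitals.

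Ogdh: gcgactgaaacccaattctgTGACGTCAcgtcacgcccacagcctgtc

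Succinate-CoA ligase, which makes ATP or GTP directly, pairs the alpha subunit encoded by Suclg1 with a beta subunit that sets the nucleotide, Sucla2 for ATP and Suclg2 for GTP. The transcripts of the alpha subunit and the ATP-specific beta subunit moved in opposite directions. Suclg1 (mm9 chromosome 6, 73198499 to 73226901, plus strand, 9 exon blocks) had 50.2, 50.2 and 51.6 CPM in the KMT2D WT libraries, against 87.6, 91.6 and 87.9 CPM in those of KMT2D KO. The groups were far apart and each was tight, so that no library was near the other group. The mean rose from 50.7 ± 0.824 to 89.0 ± 2.21 CPM (SD, n = 3), 1.76-fold, with a log2 fold change of 0.81 ± 0.06 (SE) and an edgeR adjusted p of 4.7e-09. It was the largest rise of the 9. Sucla2 (mm9 chromosome 14, 73952593 to 73995949, plus strand, 11 exon blocks) had 119, 101 and 105 CPM in the KMT2D WT libraries, against 83.5, 79.2 and 78.4 CPM in those of KMT2D KO. KMT2D WT replicate 1 was the highest, and all KMT2D KO libraries were below all KMT2D WT libraries. The mean of Sucla2 fell from 108 ± 9.62 to 80.4 ± 2.71 CPM (SD, n = 3), with a log2 fold change of -0.43 ± 0.07 (SE) and an edgeR adjusted p of 3.8e-05.

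The ratio of Sucla2 to Suclg1 per kilobase was 1.56, 1.32 and 1.34 in KMT2D WT and 0.629, 0.571 and 0.589 in KMT2D KO. The beta subunit transcript was thus above the alpha subunit transcript in every KMT2D WT library and below it in every KMT2D KO library. The mean ratio was 1.41 ± 0.135 in KMT2D WT and 0.597 ± 0.0298 in KMT2D KO (SD, n = 3), a log2 difference of -1.24. Suclg2, the GTP-specific beta subunit, rose with Suclg1, from 41.2 to 65.9 CPM (log2 fold change 0.68, edgeR adjusted p = 1.4e-07). The ratio of Sucla2 to Suclg2 was 4.41, 4.17 and 4.16 in KMT2D WT and 2.03, 1.98 and 1.92 in KMT2D KO, so the ATP-specific transcript stayed the more abundant of the beta subunits in all 6 libraries. Suclg2 has a near-identical pseudogene, Gm15163, so its counts are uncertain. Suclg1 and Suclg2 both lie on chromosome 6, where the median log2 fold change of 721 tested genes was 0.42. Scaled against the genes of that chromosome, both remained called at smaller values, Suclg1 at 0.38 and Suclg2 at 0.24.

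The promoters of the ligase genes are shown because the subunit transcripts moved apart. Whether the promoters had a part in that was not tested. In the 250 bases before the start of Suclg1 (RefSeq, GRCm38.p6, chr6:73248255-73248504, plus strand), none of the 7 motifs searched was found, and that window is printed without capitals. The window of Sucla2 holds the motif of the nuclear respiratory factor NRF1 (GCGC, A, any base, GCGC), read on the minus strand, 17 bases before the start. The 37 bases around it (chr14:73552749-73552785, plus strand) are printed with the site in capitals. That motif is present in 4.23% of genes with a window. A match is only a match of letters, and no binding was measured here.

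Suclg1: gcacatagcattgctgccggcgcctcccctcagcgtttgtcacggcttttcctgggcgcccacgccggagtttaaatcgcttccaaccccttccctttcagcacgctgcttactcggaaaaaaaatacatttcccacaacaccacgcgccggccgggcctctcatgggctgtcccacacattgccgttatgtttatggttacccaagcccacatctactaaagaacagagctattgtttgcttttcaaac

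Sucla2: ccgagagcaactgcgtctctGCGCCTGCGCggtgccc

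Fumarase hydrates fumarate to malate, and its loss is known from human renal cancers. Fh1 (mm9 chromosome 1, 177531509 to 177555766, minus strand, 10 exon blocks) had 33.2, 29.2 and 27.5 CPM in the KMT2D WT libraries, against 35.5, 40.1 and 33.1 CPM in those of KMT2D KO. KMT2D WT replicate 1 was just above KMT2D KO replicate 3, so the groups overlapped. The mean of Fh1 rose from 30.0 ± 2.92 to 36.2 ± 3.56 CPM (SD, n = 3), with a log2 fold change of 0.27 ± 0.09 (SE) and an edgeR adjusted p of 0.013. It was no longer called without KMT2D WT replicate 2 (0.25, edgeR adjusted p = 0.054), without KMT2D KO replicate 2 (0.21, edgeR adjusted p = 0.078) or with scaling by library size alone (0.16, edgeR adjusted p = 0.12). Fh1 was the member with the widest relative spread in KMT2D KO, with a coefficient of variation of 9.84%, and the median of 9044 genes with at least 10 CPM was 3.77% there.

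Malate dehydrogenase interconverts malate and oxaloacetate, in the cytosol through Mdh1 and in the mitochondrion through Mdh2, and the pair carries reducing equivalents between the compartments in the malate-aspartate shuttle. The transcripts of the isozymes moved in opposite directions. Mdh1 (mm9 chromosome 11, 21456695 to 21471937, minus strand, 9 exon blocks) had 107, 99.0 and 86.4 CPM in the KMT2D WT libraries, against 125, 132 and 116 CPM in those of KMT2D KO. All KMT2D KO libraries were above all KMT2D WT libraries, with a wide spread in each group. The mean rose from 97.4 ± 10.4 to 125 ± 7.89 CPM (SD, n = 3), 1.28-fold, with a log2 fold change of 0.35 ± 0.07 (SE) and an edgeR adjusted p of 0.0006. Mdh2 (mm9 chromosome 5, 136254519 to 136266256, plus strand, 9 exon blocks) had 165, 186 and 164 CPM in the KMT2D WT libraries, against 90.2, 91.2 and 83.3 CPM in those of KMT2D KO. The lowest KMT2D WT library was far above the highest KMT2D KO library. The mean of Mdh2 fell from 172 ± 12.3 to 88.2 ± 4.32 CPM (SD, n = 3), with a log2 fold change of -0.96 ± 0.06 (SE), a 95% interval of -1.09 to -0.83 and an edgeR adjusted p of 3.1e-09, the largest change of the 9.

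Within a library, the ratio of Mdh1 to Mdh2 per kilobase does not depend on how libraries are scaled. It was 0.424, 0.349 and 0.345 in KMT2D WT and 0.911, 0.948 and 0.915 in KMT2D KO. By the annotated exon lengths, the mitochondrial transcript was more abundant than the cytosolic transcript in all 6 libraries. In KMT2D KO the ratio came close to 1, so the order of the isozymes there hangs on the lengths used. The mean ratio was 0.373 ± 0.0443 in KMT2D WT and 0.925 ± 0.0202 in KMT2D KO (SD, n = 3), 2.49-fold higher. For this and the other 3 ratios (Ogdh/Dlst, Sucla2/Suclg1 and Sucla2/Suclg2) the groups did not overlap, and the exact permutation test, two-sided, gave p = 0.1 for each, which is the smallest value that 3 against 3 allows, and 0.1 after adjustment over the 4. Chromosome 5, which holds Mdh2, had a median log2 fold change of -0.36 over 921 tested genes, and Mdh2 lay at percentile 19.4 of them. Scaled against the genes of its chromosome, Mdh2 was lower by a smaller amount (-0.62, edgeR adjusted p = 4.7e-07).

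**Figure D2:**
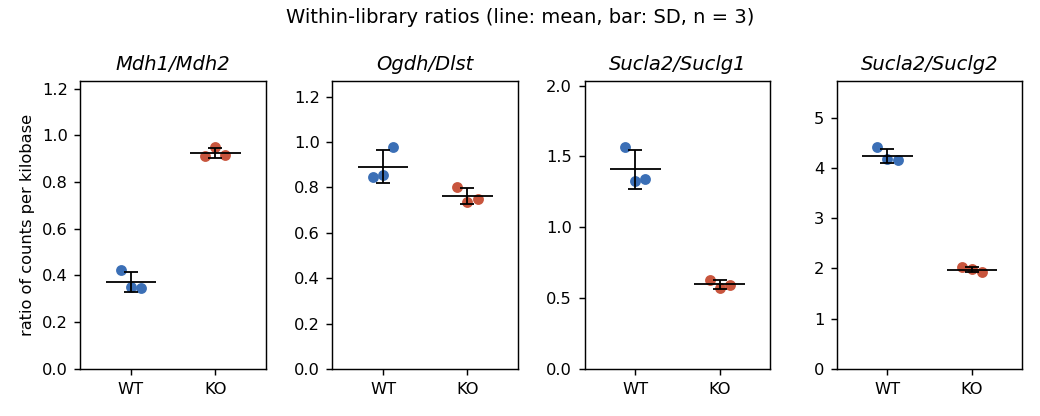
Within-library ratios of counts per kilobase for 4 pairs of cycle genes, on linear axes from 0, with 1 point per library, a line at the mean and a bar of 1 SD on either side (n = 3). Mdh1/Mdh2 is higher in KMT2D KO, the other 3 are lower, and no pair has overlapping groups.

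The promoter of Mdh2 is printed because, of the 9 genes, it held the palindrome of 10 bases that was repeated most often within a window. In the 250 bases before its start (RefSeq, GRCm38.p6, chr5:135778399-135778648, plus strand), the palindrome TCTCGCGAGA occurs 3 times, at 190, 63 and 29 bases before the start, and these copies are in capitals. The palindrome was found in 0.45% of the genes with a window, and 2 genes in all, Mdh2 and its divergent neighbour Styxl1, held 3 or more copies. The windows of these neighbours overlap, so the copies are largely shared. The Mdh2 window also holds a TGACGTCA element.

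Mdh2: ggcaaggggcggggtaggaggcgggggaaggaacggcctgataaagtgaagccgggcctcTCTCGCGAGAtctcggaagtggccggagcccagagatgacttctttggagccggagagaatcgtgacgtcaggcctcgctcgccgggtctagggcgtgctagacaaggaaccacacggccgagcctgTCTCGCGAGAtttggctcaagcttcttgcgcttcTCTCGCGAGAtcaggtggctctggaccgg

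Windows were found for all 9 genes, and 7 motifs were searched on both strands. The GC box (GGGCGG) was present in 8 of the 9, all but Suclg1. It was held by 35.36% of all genes with a window, and by 6803 of the 10884 tested genes with a window. CCAAT was present in Cs, Ogdh, Fh1 and Mdh1, against 37.49% of all genes and 4348 of the tested genes. The ETS motif ACTTCCGG (3.23% of genes) and the ERR half-site AAGGTCA (4.7%) were found in none of the 9, which says only that these letters are not in these windows. The motifs were chosen with the sequences in view. All percentages of genes with a window, here and above, are over 27025 genes, whether tested here or not. Of the 10884 tested genes, 329 held TGACGTCA, 940 the NRF1 motif, 96 the palindrome, 671 the ETS motif and 380 the ERR half-site.

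Levels can be compared between genes only per length, as FPKM, the TMM-scaled CPM per kilobase of annotated exon. The order between genes depends on the length used. For Ogdh this was 6984 bases, against 4127 in its longest coding GENCODE transcript, and for Fh1 1632 against 2636. Which transcripts were expressed was not tested, so the orders below hold only for the annotated exon lengths. In KMT2D WT the order was Mdh2 (133.9 ± 9.62), Cs (88.8 ± 2.64), Sucla2 (51.3 ± 4.56), Mdh1 (49.8 ± 5.29), Dlst (47.5 ± 2.93), Ogdh (42.3 ± 2.40), Suclg1 (36.4 ± 0.592), Fh1 (18.4 ± 1.79) and Aco1 (10.2 ± 0.236; SD, n = 3). The libraries of Sucla2 and Mdh1 overlapped, and so did those of Mdh1 and Dlst. The other neighbours in that order did not. In KMT2D KO, Cs led with 87.2 ± 0.380 FPKM, and Mdh2 (68.8 ± 3.37), Suclg1 (64.0 ± 1.59) and Mdh1 (63.6 ± 4.03) followed at levels that overlapped between Mdh2 and Suclg1 and between Suclg1 and Mdh1. Below them stood Dlst (41.5 ± 1.35), Sucla2 (38.1 ± 1.29), Ogdh (31.6 ± 0.512), Fh1 (22.2 ± 2.18) and Aco1 (13.5 ± 0.326). Fh1 and Aco1 were the least abundant in both groups.

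**Figure D3:**
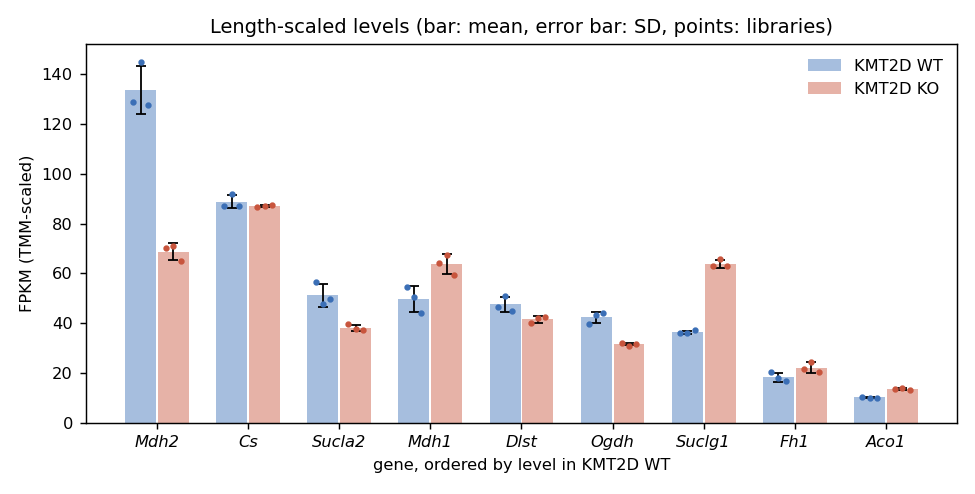
Level per length (FPKM) of the 9 genes in KMT2D WT and KMT2D KO, ordered by the KMT2D WT mean, with bars for the means, error bars for 1 SD and 1 point per library. Mdh2 is highest in KMT2D WT and lies close to Suclg1 and Mdh1 in KMT2D KO, where Cs is highest.

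The summed level of the 9 genes was 462 to 493 FPKM in the KMT2D WT libraries, against 420.1 to 440.6 FPKM in those of KMT2D KO, with means of 478 ± 15.7 and 431 ± 10.2 (SD, n = 3), and the groups did not overlap. Mdh2 alone fell by more than the sum did, from a mean of 133.9 FPKM in KMT2D WT to 68.8 FPKM in KMT2D KO. By FPKM, the other members together therefore did not fall. The share of the sum held by Mdh2 was 28.0% in KMT2D WT and 16.0% in KMT2D KO. Suclg1 held 7.62% and 14.9%, Mdh1 10.4% and 14.8%, and Cs 18.6% and 20.3%. The summed level of 10 other subunits and isozymes of the cycle, measured the same way, was 413 to 433 FPKM in the KMT2D WT libraries, against 344 to 373 FPKM in those of KMT2D KO.

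These 10 other genes of the cycle gave 2 higher, 6 lower and 2 not called, with a median log2 fold change of -0.20. Of all tested genes, 35.4% were higher and 35.5% lower, with a median of 0.00. The higher genes were Ogdhl and Suclg2, described above. Idh3a, the catalytic subunit of the NAD-dependent isocitrate dehydrogenase, fell from 57.0 to 37.1 CPM (-0.62, edgeR adjusted p = 5.5e-06, and -0.30 when scaled within its chromosome), and Idh3b fell from 90.6 to 76.6 CPM (-0.24, and -0.50 when scaled within its chromosome). Idh3g, the remaining subunit of that enzyme, had 70.5 and 66.9 CPM and was not called (-0.07, edgeR adjusted p = 0.38). It was called lower by edgeR when scaled within its chromosome (-0.26, adjusted p = 0.0084), with library size alone (-0.19, adjusted p = 0.040) and without KMT2D WT replicate 1 (-0.15, adjusted p = 0.049). Among the subunits of succinate dehydrogenase, which is also complex II of the respiratory chain, the flavoprotein gene Sdha fell most, from 212 to 120.0 CPM (-0.82, edgeR adjusted p = 1.2e-09). Sdhd, a membrane anchor, fell from 57.8 to 48.2 CPM (-0.26), was not called without KMT2D KO replicate 3 (-0.19, edgeR adjusted p = 0.057) and was 0.05 when scaled within its chromosome. The iron-sulfur subunit gene Sdhb fell from 61.6 to 55.0 CPM (-0.16, edgeR adjusted p = 0.049) and was not called in 5 of 15 alternatives, among them those without KMT2D WT replicate 2 (-0.09) and without each KMT2D KO replicate (-0.17, -0.17 and -0.12). Scaled within its chromosome, or by library size alone, Sdhb was called at -0.27. The anchor gene Sdhc was not called (57.0 and 56.5 CPM, -0.01). Sdha lies on chromosome 13, where the median over tested genes was -0.54, and it was -0.29 when scaled against them.

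**Figure D4:**
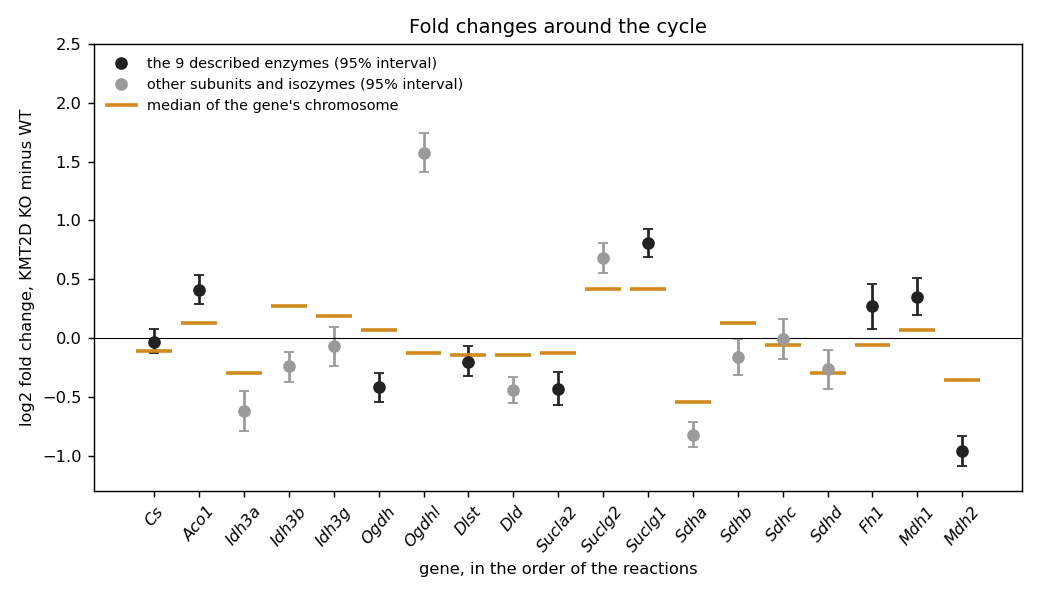
Log2 fold change of 19 cycle genes (KMT2D KO relative to KMT2D WT) in order around the cycle, with the 95% interval as a bar, the 9 core genes in black, the others in grey and a line at the median of each gene's chromosome. Among the 9 Suclg1 (0.81) and Mdh2 (-0.96) lie farthest from 0, and Ogdhl (1.57) is the highest of the 19.

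The list for the entry of pyruvate into the cycle, which holds both enzymes and their regulators, gave 10 of 14 higher, 3 lower and 1 not called (median log2 fold change 0.69), against 35.4% higher and 35.5% lower of all tested genes. Of the 10 higher genes, 4 were Pdk1, Pdk2, Pdk3 and Pdk4, kinases that inhibit pyruvate dehydrogenase, with Pdk1 rising from 17.5 to 152 CPM (3.12). Also higher were the pyruvate dehydrogenase phosphatase gene Pdp2 (0.78), the phosphatase regulator gene Pdpr (1.16), and the pyruvate carrier genes Mpc1 (0.61) and Mpc2 (0.47). Another was Pcx, the pyruvate carboxylase gene that makes oxaloacetate for Cs (49.8 to 327 CPM, 2.71). The phosphatase gene Pdp1 was the 1 not called (30.0 and 29.7 CPM, -0.02). Of the pyruvate dehydrogenase subunit genes, Dlat (116 to 52.4 CPM, -1.15), Pdhb (62.7 to 38.8 CPM, -0.69) and Pdhx (-0.24) fell and Pdha1 (0.19) rose. In the isocitrate and glutamine carbon list, 4 of 9 were higher, 4 lower and 1 not called, with a median of -0.08 (against 35.4% higher and 35.5% lower of all tested genes). Idh2, for the mitochondrial NADP-dependent isocitrate dehydrogenase, rose (43.8 to 183 CPM, 2.07). Of the malic enzyme genes, Me3 rose (2.19 to 27.6 CPM, 3.65), while Me1 (86.5 to 33.6 CPM, -1.37) and Me2 (53.0 to 30.5 CPM, -0.79, and -0.30 when scaled within its chromosome) fell.

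The next list holds the other partners of Mdh1 and Mdh2 in the malate-aspartate shuttle, together with genes of the separate glycerol phosphate shuttle. It gave 4 higher, 3 lower and 1 not called of 8, with a median of 0.09 (against 35.4% higher and 35.5% lower of all tested genes). The aspartate-glutamate carrier gene Slc25a13 rose from 6.62 to 12.3 CPM (0.90, and 0.46 when scaled within its chromosome), and Gpd1l rose from 18.5 to 23.4 CPM (0.34, and 0.65 when scaled within its chromosome). The cytosolic aspartate aminotransferase gene Got1 fell from 68.1 to 36.1 CPM (-0.92), and the glycerol phosphate dehydrogenase gene Gpd1 fell from 1.88 to 0.749 CPM (-1.31, not called without KMT2D WT replicate 2, at -1.16). Of 14 genes that make or insert lipoate and iron-sulfur clusters, cofactors of Dlst and Aco1, 2 were higher, 4 lower and 8 not called, with a median of -0.12 (against 35.4% higher and 35.5% lower of all tested genes). The iron-sulfur scaffold gene Iscu fell from 62.6 to 29.6 CPM (-1.08), and the lipoyltransferase gene Lipt1 fell from 5.95 to 3.87 CPM (-0.62). The cluster carrier gene Nfu1 rose from 25.1 to 35.6 CPM (0.50, and not called at 0.07 when scaled within its chromosome), and the co-chaperone gene Hscb rose from 6.03 to 8.35 CPM (0.47, and 0.81 when scaled within its chromosome).

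Iron regulation, in which the Aco1 protein takes part as IRP1, gave 4 higher, 4 lower and 3 not called of 11 genes, with a median of 0.09 (against 35.4% higher and 35.5% lower of all tested genes). The iron exporter gene Slc40a1 rose from 1.01 to 4.49 CPM (2.12), and the heme oxygenase gene Hmox1 rose from 250.1 to 576 CPM (1.20). The transferrin receptor gene Tfrc, whose mRNA is a known target of iron regulatory proteins, fell from 93.2 to 61.6 CPM (-0.60, and -0.16 when scaled within its chromosome), and the mitochondrial iron importer gene Slc25a37 fell from 114 to 54.7 CPM (-1.05).

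Against genes that report on mitochondria in general, the cycle genes stood as follows. Of 20 genes of mitochondrial import, folding and genome maintenance, 4 were higher, 11 lower and 5 not called, with a median of -0.34 (against 35.4% higher and 35.5% lower of all tested genes). The chaperone gene Hspa9 (827 to 339.8 CPM, -1.28) and the outer membrane pore gene Tomm40 (121 to 52.7 CPM, -1.21) fell, and the mitochondrial polymerase gene Polg (35.0 to 60.0 CPM, 0.78) and the prohibitin gene Phb2 (97.3 to 128 CPM, 0.40) rose. Of 20 respiratory chain and ATP synthase genes, 6 were higher, 6 lower and 8 not called, with a median of 0.04, against the same shares of all tested genes. The ATP synthase genes Atp5c1 (120.1 to 158 CPM, 0.40) and Atp5b (775 to 389 CPM, -0.99) moved in opposite directions. Cox7c, of complex IV, rose from 33.9 to 44.1 CPM (0.38), and Uqcrfs1, of complex III, fell from 33.3 to 23.5 CPM (-0.50). Scaling within the chromosome ended the call of Phb2 (-0.04) and that of Uqcrfs1 (0.02), gave -0.79 for Hspa9 and 0.14 for Atp5c1, and raised Cox7c to 0.90. Over all 118 tested genes of these lists and of a list of mitochondrial gene regulators, with the 10 other cycle genes included, 40 were higher, 45 lower and 33 not called, with a median of -0.02.

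The 9 genes lie on 8 chromosomes, and the medians of these chromosomes ranged from -0.36 (chromosome 5, Mdh2) to 0.42 (chromosome 6, Suclg1). Ogdh and Mdh1 share chromosome 11, whose median was 0.07, and moved in opposite directions. Within their chromosomes, Ogdh lay at percentile 21.6, Sucla2 at 31.2, Dlst at 46.5, Cs at 53.6, Suclg1 at 66.0, Fh1 at 66.4, and Aco1 and Mdh1 each at 67.4. Scaled within each chromosome, Aco1 (0.31), Fh1 (0.34) and Mdh1 (0.30) remained called as higher, as did Ogdh (-0.47) and Sucla2 (-0.33) as lower by the edgeR test.

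**Figure D5:**
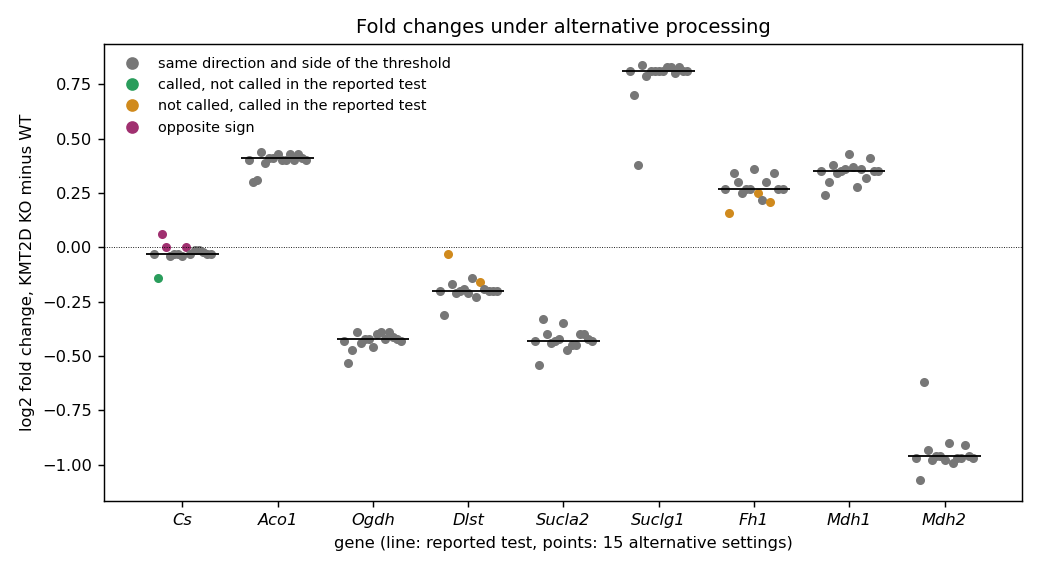
Log2 fold change of each of the 9 genes under the reported test (line) and 15 alternative settings (points), with colours for calls gained, calls lost and values of the opposite sign. Aco1, Ogdh, Sucla2, Suclg1, Mdh1 and Mdh2 keep their sign and their call throughout, and Cs lies on both sides of 0.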

How the data were processed

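RNA from 6 libraries, 3 per group as the labels give them, was sequenced. The authors deposited counts of fragments for each gene, summed over the exons of an mm9 annotation by featureCounts 1.5.2, per the file headers. STAR and HTSeq are named in the submitters' processing notes, with no role or version given. The recorded command set no strand, multi-mapping or multi-overlap option, so both strands were counted together, and fragments with several map positions or overlapping several genes were, by default, left out. None of the 9 genes shares exon bases with another gene or has a transcript copy of at least 95% identity over 100 bases (blastn 2.17.0 on GENCODE M21 transcripts). Exon length in bases, another deposited column per the file headers, was used for FPKM and ratios. Coordinates are those of the files (mm9, from 1). Promoter windows came from RefSeq (GRCm38.p6) by gene symbol, and these coordinates are of that build.

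From the counts, all genes were fitted together in edgeR 4.0.16 (R 4.3.3) and tested with its quasi-likelihood F test, with TMM scaling, the default filter by group and the group as the sole term. TMM factors lay at 1.0365 to 1.0436 for KMT2D WT libraries and 0.9568 to 0.9674 for KMT2D KO libraries. Calls were made at a Benjamini-Hochberg adjusted p under 0.05 over 14579 tested genes, and 3978 genes had no count. Within groups, the biological coefficient of variation was 7.94%. Intervals of fold changes are 95% intervals of the fit. The scripts were tested on simulated data. Libraries of a group differed by more than sampling noise (chi-square 11.6 to 26.4 per degree of freedom), so none was a second copy.

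The members and lists were chosen with earlier results of these data known, so agreement with those results is no independent support, and no list was tested as a set. All 9 members and the 10 other cycle genes may be named. From each other list, up to 2 called genes in each direction were named, taking the largest absolute log2 fold changes among genes with at least 1 CPM in the higher group. Gm15163, Styxl1, Pdk2, Pdk3, Pdk4, Pdp1, Pdp2, Pdpr, Mpc1, Mpc2, Pdhx and Pdha1 were chosen after their values or sequences were seen. So were the melanocyte marker Mitf and the fibroblast markers Dpt, Lum, Col1a1, Col1a2, Col3a1 and Pdgfra. Some genes of the pathway lists, and a ratio that needs such a gene, are not reported here and were left out of the lists' counts, while the fit over all genes kept them. Alternatives were RLE factors, library size alone, TMM within each chromosome, 2 other filters, robust empirical Bayes, limma voom (3.58.1), DESeq2 (1.42.0), the replicate number as a block, TPM for summed levels, and leaving out each library in turn.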

Additional observations from a re-analysis of the deposited data

How the results depend on the processing

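Aco1, Ogdh, Sucla2, Suclg1, Mdh1 and Mdh2 kept their direction and their call under all 15 alternatives. Between 7 and 8 of the 9 genes were called, with 7 under scaling within chromosomes and when KMT2D WT replicate 2, KMT2D KO replicate 1 or KMT2D KO replicate 2 was left out. Over all alternatives, 9371 to 10798 tested genes and 75 to 90 pathway genes were called.

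Scaling within each chromosome changed the sign of Cs (0.06), Sdhc (0.05), Sdhd (0.05), Phb2 (-0.04), Nrf1 (-0.06), Sirt5 (0.15) and Uqcrfs1 (0.02), and Dlst (-0.03) was not called. Library size alone moved the median of all genes by -0.11, gave 3 members higher and 5 lower, called Cs (-0.14) and lost Fh1 (0.16). With no low-count filter, Cs was 0.00, above 0 before rounding, and Sdhc 0.02. TPM gave a log2 difference of -0.36 in the summed level of the 9, where the median of all genes was -0.20.

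Leaving out 1 library gave Dlst -0.23 to -0.14 and Fh1 0.21 to 0.36, with the losses of calls given above. When KMT2D WT replicate 2 was left out, Cs turned to 0.00 and Sdhc to 0.03. Idh3g ranged from -0.15 to 0.00, the latter without KMT2D WT replicate 3, and Sdhc reached 0.09 when KMT2D KO replicate 3 was left out. Where no construction explains these changes, the cause was not tested.

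With the replicate block, 10368 genes and 8 of the 9 were called, and Sirt5 (-0.36, edgeR adjusted p = 0.052) was not. Same-numbered libraries did not deviate together (correlations 0.008 to 0.015). The labels do not say whether the numbers pair libraries, and correlations near 0 cannot settle it. The 4 ratios kept their values as paired differences (exact sign-flip permutation p = 0.25, the smallest possible).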

Other observations

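Of 13 regulators of mitochondrial genes, 12 could be tested, and 4 were higher, 4 lower and 4 not called, with a median log2 fold change of 0.05 (against 35.4% higher and 35.5% lower of all tested genes). Nrf1, which encodes the factor named in the Sucla2 promoter motif, rose from 22.4 to 29.2 CPM (0.38), and the coactivator gene Ppargc1b rose from 0.678 to 1.38 CPM (1.02). Gabpa, which encodes the ETS factor GABP alpha, fell from 153 to 71.3 CPM (-1.10), and the mitochondrial deacylase gene Sirt5 fell from 7.75 to 6.01 CPM (-0.38, edgeR adjusted p = 0.040), with overlapping libraries, and lost its call in each fit without 1 library except the fit without KMT2D WT replicate 3. Scaled within its chromosome, Gabpa was -0.67, Sirt5 0.15 and Ppargc1b 1.51. Ppargc1b was not called without KMT2D KO replicate 1 (0.93, edgeR adjusted p = 0.069). The rise of Nrf1, on chromosome 6, was not seen with scaling within chromosomes (-0.06).

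Genes that share a promoter motif with Mdh2 or Sucla2 were read as a description. Of 96 tested genes with TCTCGCGAGA in the 250 bases before the start, 22 were higher and 44 lower, with a median log2 fold change of -0.18. Of 940 with the NRF1 motif, 270 were higher and 405 lower, with a median of -0.11. The Mdh2 window also holds TGACGTCA, and of 329 tested genes with it 110 were higher and 125 lower (median -0.03). Both windows hold the GC box, and of 6803 tested genes with it 2536 were higher and 2378 lower (median 0.03). Of motifs in neither window, ETS was held by 671 tested genes, 185 higher and 261 lower (median -0.05). The ERR half-site was held by 380, 126 higher and 129 lower (0.01), and CCAAT by 4348, 1651 higher and 1485 lower (0.04). Among all 10884 tested genes with a window, 3884 were higher and 3846 lower, with a median of 0.01. Mdh2 and Styxl1 are counted among the genes with TCTCGCGAGA, and Sucla2 among those with the NRF1 motif. Whether any motif had a part in these directions was not tested. Styxl1, which shares its promoter region with Mdh2, had a log2 fold change of -0.85 and was not called (edgeR adjusted p = 0.21).

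The 10 tested genes on each side of Mdh2 had a median log2 fold change of -0.51, with 2 higher and 11 lower of the 20, where 54.4% of all tested genes of chromosome 5 were lower and 18.9% higher. Around Suclg1 the median was 0.34, with 10 higher and 8 lower, where 57.6% of the tested genes of chromosome 6 were higher and 19.8% lower.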
